A study of Mus musculus with 9 samples.

Results

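The collagen genes of mouse striatum were followed over saline, acute MPTP and chronic MPTP. They were taken as every probe set with exactly 1 gene symbol whose symbol names an alpha chain of a collagen, such as Col1a1. One probe set stood for each gene, the brightest on average over the 9 arrays. This gave 44 collagen genes of 19935 genes with such a probe set. Of the 44, 43 passed the filter on dim probe sets and were tested, among 14880 genes tested in all. Col10a1, a chain of hypertrophic cartilage, lay just under the filter with a mean log2 intensity of 5.76, and Col5a2 lay just above it at 5.92. The rule used no measured difference between groups, but it did use the brightness of a probe set. It was set with earlier results of these data known.

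MPTP is a neurotoxin whose metabolite damages dopamine neurons, whose fibres supply the striatum. Acute mice had 4 injections of 20 mg/kg, given 2 h apart into the peritoneum, and their striatum was collected 1 week afterwards. Chronic mice had 4 mg/kg daily on 20 days, and theirs was collected after 8 weeks. Both regimens came to 80 mg/kg. Control mice had 4 saline injections at 2 h spacing and a wait of 1 week. Each group had 3 arrays, called here control 1 to 3, acute 1 to 3 and chronic 1 to 3 after the numbers in the labels. The strain, sex and age of the mice are not given in the sources used here. No saline group was analysed at 8 weeks, so the chronic regimen and the later time cannot be told apart. The labels do not say that each array came from its own animal, and p-values then measure only the spread between these samples, which may be technical.

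Collagens are trimers of alpha chains wound into a triple helix, and most are secreted into the extracellular matrix. Fibrillar chains such as Col1a1 and Col3a1 build the fibres of connective tissue, which in brain lie in the meninges and around larger vessels and are made chiefly by fibroblasts. Col4a1 and Col4a2 form the sheet of the basement membrane under the vessel endothelium. A few collagens, among them the transmembrane chain Col25a1, are made by neurons. Several others, such as Col2a1, Col7a1 and Col17a1, are known from cartilage or skin. In bulk tissue, fewer cells of a type and less RNA per cell cannot be told apart.

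No collagen gene passed the adjusted test in any comparison, so that test did not pick the sequences shown here. They are those of 3 collagen genes of different kinds. Col9a1, Col13a1 and Col25a1 were considered too, but are not printed. The start used for each lay inside the annotated span of the gene itself, so that the stretch overlapped its own gene. Col1a2 is a meningeal fibrillar chain with a narrow range over the arrays, 0.22. Col8a1 had the widest range, and Col9a2 belongs to a trimer whose chains had their lowest means in the chronic group. Each is the 150 bases before the start of the gene in RefSeq on build GRCm38.p6, read 5′ to 3′ on the strand of the gene, and each lies outside any gene annotated there. Capitals mark matches, on either strand, to the CCAAT box or to GGGCGG; the letters TATAAA were sought as well. The Col1a2 stretch is chr6:4505468-4505617 on the plus strand, Col8a1 is chr16:57754738-57754887 on the minus strand, and Col9a2 is chr4:121039416-121039565 on the plus strand.
Col1a2: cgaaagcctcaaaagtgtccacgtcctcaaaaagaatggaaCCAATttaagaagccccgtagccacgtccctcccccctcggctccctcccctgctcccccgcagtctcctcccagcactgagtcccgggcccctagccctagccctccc
Col8a1: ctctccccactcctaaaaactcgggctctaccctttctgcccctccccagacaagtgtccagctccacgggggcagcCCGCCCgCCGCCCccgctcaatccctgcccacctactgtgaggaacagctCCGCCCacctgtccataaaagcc
Col9a2: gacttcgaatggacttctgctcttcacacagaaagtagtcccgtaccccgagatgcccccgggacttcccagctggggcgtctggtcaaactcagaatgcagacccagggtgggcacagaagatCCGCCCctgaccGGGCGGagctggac

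The Col1a2 stretch held 1 CCAAT match. The Col8a1 stretch held 3 GGGCGG matches on the opposite strand, and the Col9a2 stretch held 2, of which 1 was on each strand. RefSeq windows were found for 35 of the 44 collagen genes, as 38 windows, and motifs were sought on both strands of the 250 bases before the start. The GC box core GGGCGG was present in 22 of 38 collagen windows (57.9%), against 32.7% of all 32851 windows. The collagen windows also had a higher median GC content, 59% against 52.4%. CCAAT was in 34.2% of collagen windows and 33.9% of all windows, and TATAAA was in 13.2% and 12.4%. Col4a1 and Col4a2 are a head-to-head pair on chromosome 8: the starts used for their windows overlapped, so that the pair shared 22 transcribed positions on opposite strands. Col4a6 and Col4a5 are a similar pair on chromosome X, with starts 1343 bases apart. These matches are descriptions of letters in a window.

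Values are log2 intensities as deposited, and 1 unit is a doubling of intensity. The medians of the arrays ran from 6.85 to 6.90. The lower quartiles ran from 5.57 on chronic 3 to 5.67 on control 1 and acute 1, which is not small beside the collagen differences below. Chronic 1 and acute 2 both read 5.65. After quantile normalization the collagen medians were 0.07 for acute against control, -0.04 for chronic against control and -0.12 for chronic against acute. Projection neuron genes were bright on every array but not even. Penk, which encodes proenkephalin, ran from 13.16 to 13.56, the narrowest range of the list, and Tac1 from 10.50 to 11.89. The 10 measured had mean deviations of -0.42 on control 1 and -0.55 on control 3, against 0.39 on chronic 3. In chronic against control all 10 were above 0 (median 0.58). Of these, 9 had an unadjusted p under 0.05 in limma, against 2.85% of all probe sets higher. Arrays also differed in markers of neighbouring tissue. Tbr1, a transcription factor of cortical projection neurons, was bright on control 1 (9.89), acute 1 (9.12) and acute 2 (9.65), while the other 6 read 5.69 to 7.27. Ttr, the transthyretin of choroid plexus, was bright on control 3 (12.56) and acute 3 (13.37), while the remaining 7 read 6.19 to 10.85. The 9 measured cortical markers had mean deviations of 0.85 to 1.28 from their own means on the 3 arrays high in Tbr1, and of -0.86 to -0.33 on the other 6. The counts and medians over the collagen genes are given with and without these arrays. Leaving out the 3 arrays high in Tbr1 leaves acute 3, itself high in Ttr, as the only acute array, so that such a value is a difference from a single array, whose spread limma takes to be that of the other groups.

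Most collagen genes were dim in this tissue. The mean over the arrays was below the median of all probe sets with 1 symbol for 35 of 44 collagen genes (79.5%). Of the 43 tested, 26 were among the dimmest 4084 tested probe sets (log2 5.89 to 6.88), 17 among the next 4084 (6.88 to 8.05) and 0 among the brighter remainder. Many had exactly equal values on several arrays: 16 of 43 (37.2%) had the same value on at least 3 arrays, against 16.5% of all tested probe sets, and 5 (11.6%) on at least 5 arrays, against 1.82%. Col6a5, a chain of the type VI family, had 1 value, 6.46, on 7 of 9 arrays. Its differences between groups came from acute 1, at 6.51, and chronic 3, at 6.37.

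The plainest feature of the collagen genes was a shared order of the arrays. The median deviation of the 43 genes from their own means was 0.08 on control 1, -0.03 on control 2 and -0.07 on control 3. It was 0.14 on acute 1, 0.08 on acute 2 and -0.00 on acute 3, and 0.00 on chronic 1, -0.02 on chronic 2 and -0.18 on chronic 3. Acute 1 and chronic 3 were thus the extremes. Acute 1 was the highest array for 20 of 43 genes, against 10.3% of all tested probe sets. Chronic 3 was the lowest for 27 of 43, against 18.2%. On acute 1, 40 of 43 collagen genes were above their own mean, and on chronic 3 only 4 were.

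**Figure D1:**
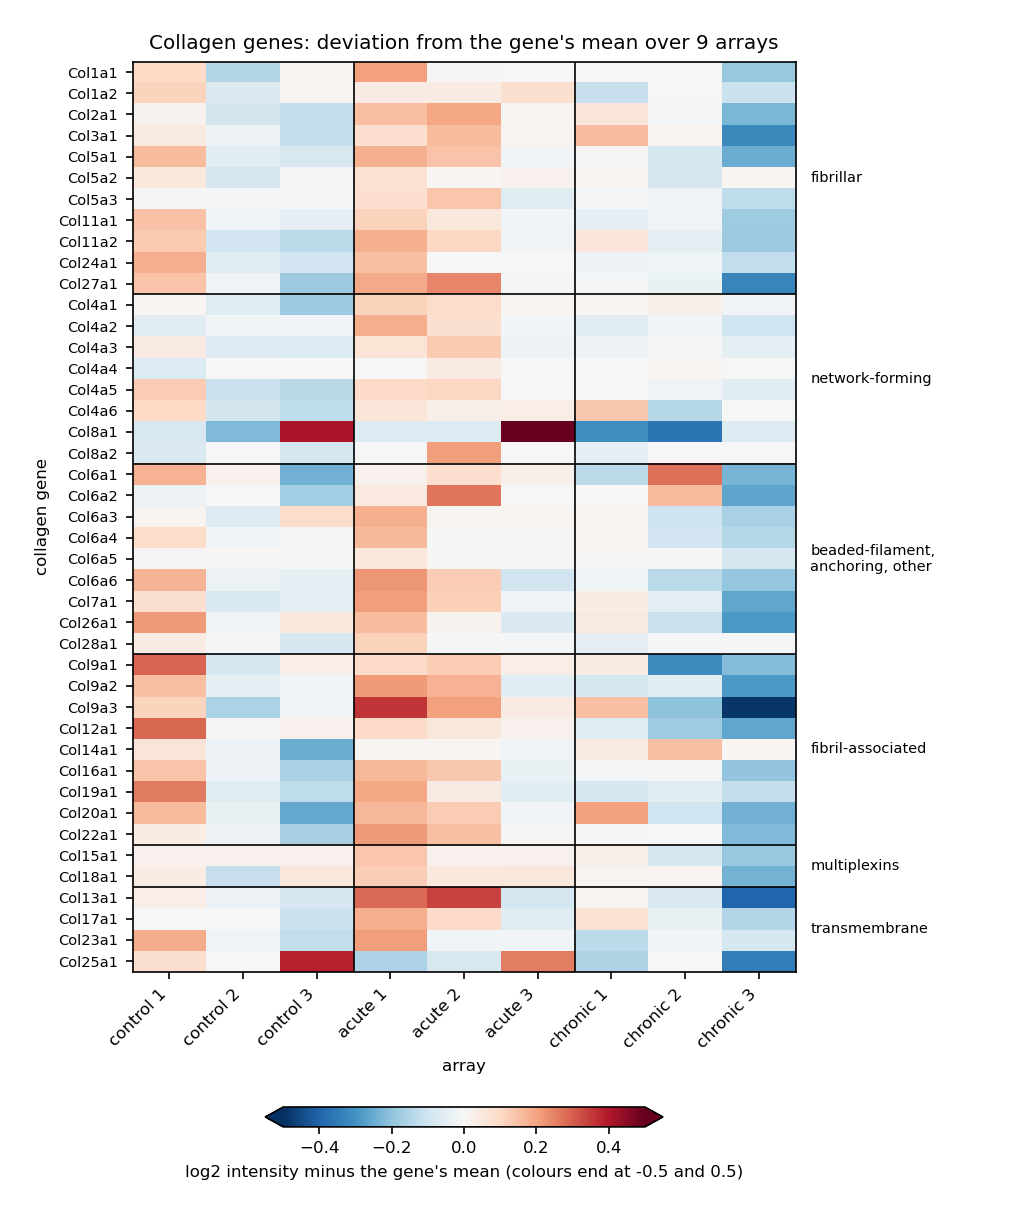
Each row is 1 of the 43 tested collagen genes, grouped by kind of collagen, and each column is 1 array; the colour gives the log2 intensity minus that gene's mean over the 9 arrays. Red is common on control 1, acute 1 and acute 2, blue on chronic 3, and Col8a1 and Col25a1 differ from the other rows in being highest on acute 3 and control 3.

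The high arrays were those with cortical markers. Of the 43 collagen genes, 37 (86%) had their highest value on control 1, acute 1 or acute 2, against 34.1% of all tested probe sets, and chronic 3, the lowest array for most, also had the lowest Tbr1. The pattern was also present, at a smaller size, in dim probe sets in general. Among the dimmest 4084 the median deviation was 0.03 on acute 1 and -0.06 on chronic 3, while among the brightest 4084 it was -0.01 on acute 1 and 0.04 on chronic 3. Several chains known from cartilage and skin were lowest on chronic 3 too. Col2a1 ranged from 6.93 on chronic 3 to 7.36 on acute 2, and Col7a1 from 6.79 on chronic 3 to 7.26 on acute 1. Col17a1 ranged from 6.45 on chronic 3 to 6.78 on acute 1. Not all did so: Col9a1 was lowest on chronic 2 (5.96), and the untested Col10a1 on control 3 (5.52). Markers of meningeal and perivascular fibroblasts had another order in their mean, but single genes of the list were split. Their mean deviation was highest on acute 3 (0.23) and control 3 (0.14) and lowest on chronic 1 (-0.13). It was -0.02 on acute 1 and -0.01 on chronic 3. Dcn, with the widest range of the list, was highest on control 3 (8.78), followed by chronic 3 (8.67) and acute 3 (8.59). It read 7.92 on acute 1 and was lowest on acute 2 (7.32). Igf2 and Ogn were highest on acute 3 and control 3. Islr was instead highest on acute 2 (8.06) and control 1 (8.01), and Osr1 on acute 2 (7.42) and acute 1 (6.91). The part of tissue content or of low signal in the collagen values was not tested beyond the fits given with each comparison.

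**Figure D2:**
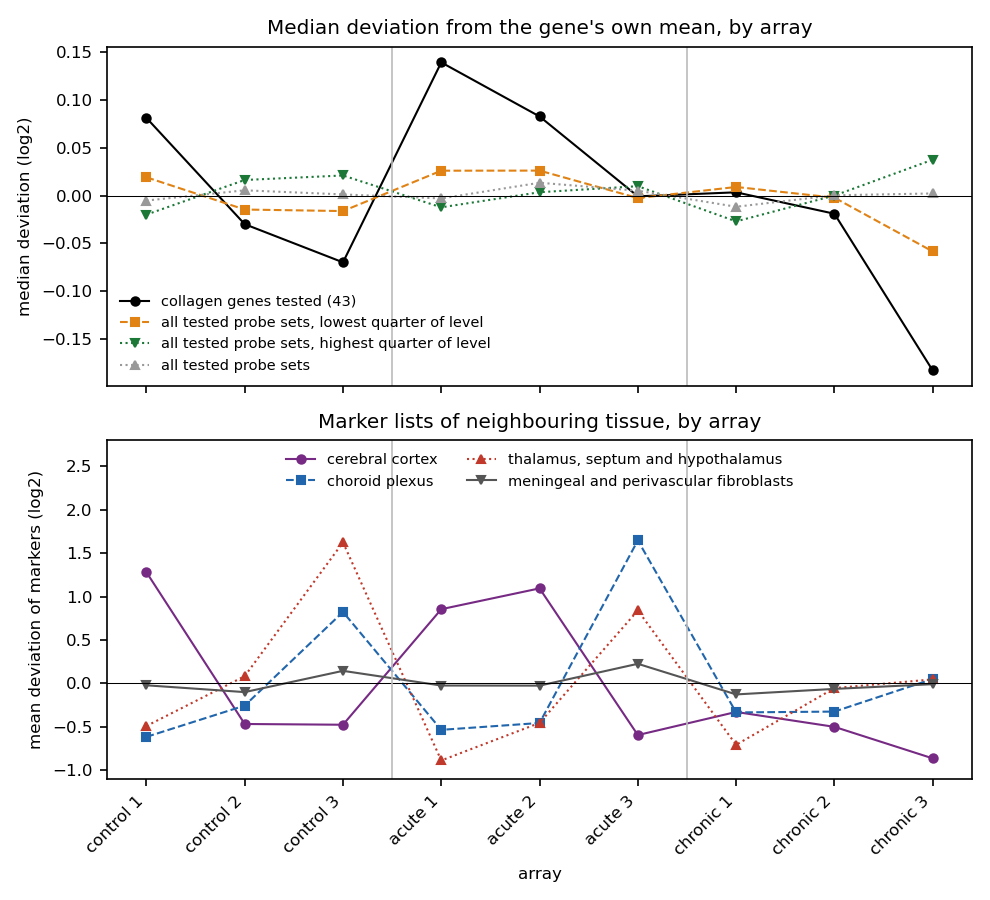
The upper panel plots, for each array, the median deviation in log2 intensity from each gene's own mean for the 43 collagen genes, for all tested probe sets, and for their dimmest and brightest 4084; the lower panel plots the mean deviation of 4 marker lists. The collagen line peaks on acute 1 (0.14) and is lowest on chronic 3 (-0.18), and among the marker lists the cortical one shares its 3 high arrays.

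In acute MPTP against control, 0 of 43 collagen genes passed an adjusted p of 0.05 in limma, and 0 had an unadjusted p under 0.05. Over all 16335 probe sets 0% passed the adjusted test and 0.851% had an unadjusted p under 0.05. The differences were small and mostly of 1 sign. Of the 43 genes, 40 (93%) had a higher mean in the acute group, against 51.5% of all probe sets, and the median difference was 0.08 on the log2 scale, against 0.00 over all. Single genes ran from -0.15 for Col25a1 to 0.22 for Col9a3. The groups overlapped for every collagen gene, whereas 3.56% of all probe sets did not overlap. Col12a1, Col25a1 and Col26a1 were the 3 with a lower acute mean. Without acute 3, 1 gene had an unadjusted p under 0.05, against 2.12% of all probe sets. Without the 2 arrays high in Ttr, 38 genes were above 0 and the median was 0.09. With the cortical and choroid plexus marker means as covariates, 34 were above 0 and it was 0.05. With acute 3 as the only acute array, after leaving out those high in Tbr1, 33 were above 0, 6 were below and it was 0.06. With the replicate number as a block, 3 genes had an unadjusted p under 0.05 and were higher (Col2a1, Col13a1 and Col22a1), against 2% of all probe sets higher. The smallest adjusted p of a collagen gene in that fit was 0.98. The block follows a pairing seen in these same values and not given by the labels, so its p-values here and below are descriptive.

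In chronic MPTP against control the signs leaned the other way. Of the 43 collagen genes, 33 (76.7%) had a lower chronic mean, against 53.2% of all probe sets, and the median difference was -0.06, against -0.01 over all. None passed the adjusted test, as for all probe sets (0%), and the smallest adjusted p of a collagen gene in limma was 0.884. Col12a1 alone had an unadjusted p under 0.05 and was lower (2.33% of collagen genes, against 2.66% of all probe sets lower and 5.51% in either direction). Col12a1 and Col9a2 did not overlap between the groups and were lower in the chronic group, against 3.67% of all probe sets lower. The lean depended on single arrays. Without chronic 3, 23 of 43 were lower and the median difference was -0.001, against -0.011 over all probe sets. Without control 1, the only array high in Tbr1 in this comparison, 22 were lower and it was -0.008, against -0.014 over all probe sets. With the cortical and choroid plexus covariates, 26 were lower and it was -0.01, against -0.01 over all probe sets. Without control 3, the only array high in Ttr here, it was -0.09, with 39 lower. The count of collagen genes with an unadjusted p under 0.05 moved as well. Without chronic 1 it was 4 (7.87% of all probe sets), without control 2 it was 3 (7.48%) and without acute 3 it was 2 (4.87%). Without chronic 3 it was 0 (3.58%), as it was without control 1 (4.38%). With the replicate block it was 4 (Col8a1, Col9a1, Col12a1 and Col26a1), all lower, against 6.46% of all probe sets lower, with a smallest adjusted p of 0.262.

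Chronic against acute MPTP gave the most even picture. The chronic mean was lower for 42 of 43 collagen genes (97.7%), against 53.9% of all probe sets, and the median difference was -0.14, against -0.01. Col14a1, a fibril-associated chain, was the exception at 0.07. Again 0 collagen genes passed the adjusted test, while 0.0122% of all probe sets did, and the smallest adjusted p of a collagen gene was 0.877. Col9a2, Col9a3 and Col13a1 had an unadjusted p under 0.05 and were lower in the chronic group, a share of 6.98% against 2.76% of all probe sets lower and 5.12% in either direction. Col1a2, Col9a2, Col12a1, Col18a1 and Col24a1 did not overlap between the groups (11.6%), against 5.01% of all probe sets lower. For Col9a2 the closest chronic and acute values were equal at 2 decimals. With the replicate block, itself drawn from these values, 13 genes had an unadjusted p under 0.05, all of them lower (30.2% against 7.19%). The smallest adjusted p in that fit was 0.249. These 3 comparisons share arrays, so their signs are not independent of each other.

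Leaving out single arrays moved the counts. The count with an unadjusted p under 0.05 in chronic against acute was 0 without acute 1, acute 2, chronic 3 or control 3, where the shares of all probe sets were 3.51%, 2.38%, 3.07% and 4.63%. It was 1 without control 2 (4.67% of all probe sets) or chronic 2 (6.17%) and 4 without control 1 (5.27%). It was 5 without acute 3 (5.97%) or chronic 1 (8.45%). The median difference lay between -0.18 and -0.08 in these fits and was -0.08 without chronic 3. Without the 2 arrays high in Ttr it was -0.18, and 42 of 43 genes were lower. With acute 3 as the only acute array, after leaving out those high in Tbr1, it was -0.06, and 39 genes were lower. With the cortical and choroid plexus marker means as covariates it was -0.06, and 32 genes were lower. With the fibroblast marker mean as a covariate it was -0.18, with 11 genes at an unadjusted p under 0.05, against 10.2% of all probe sets. No collagen gene passed the adjusted test in any of these fits.

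**Figure D3:**
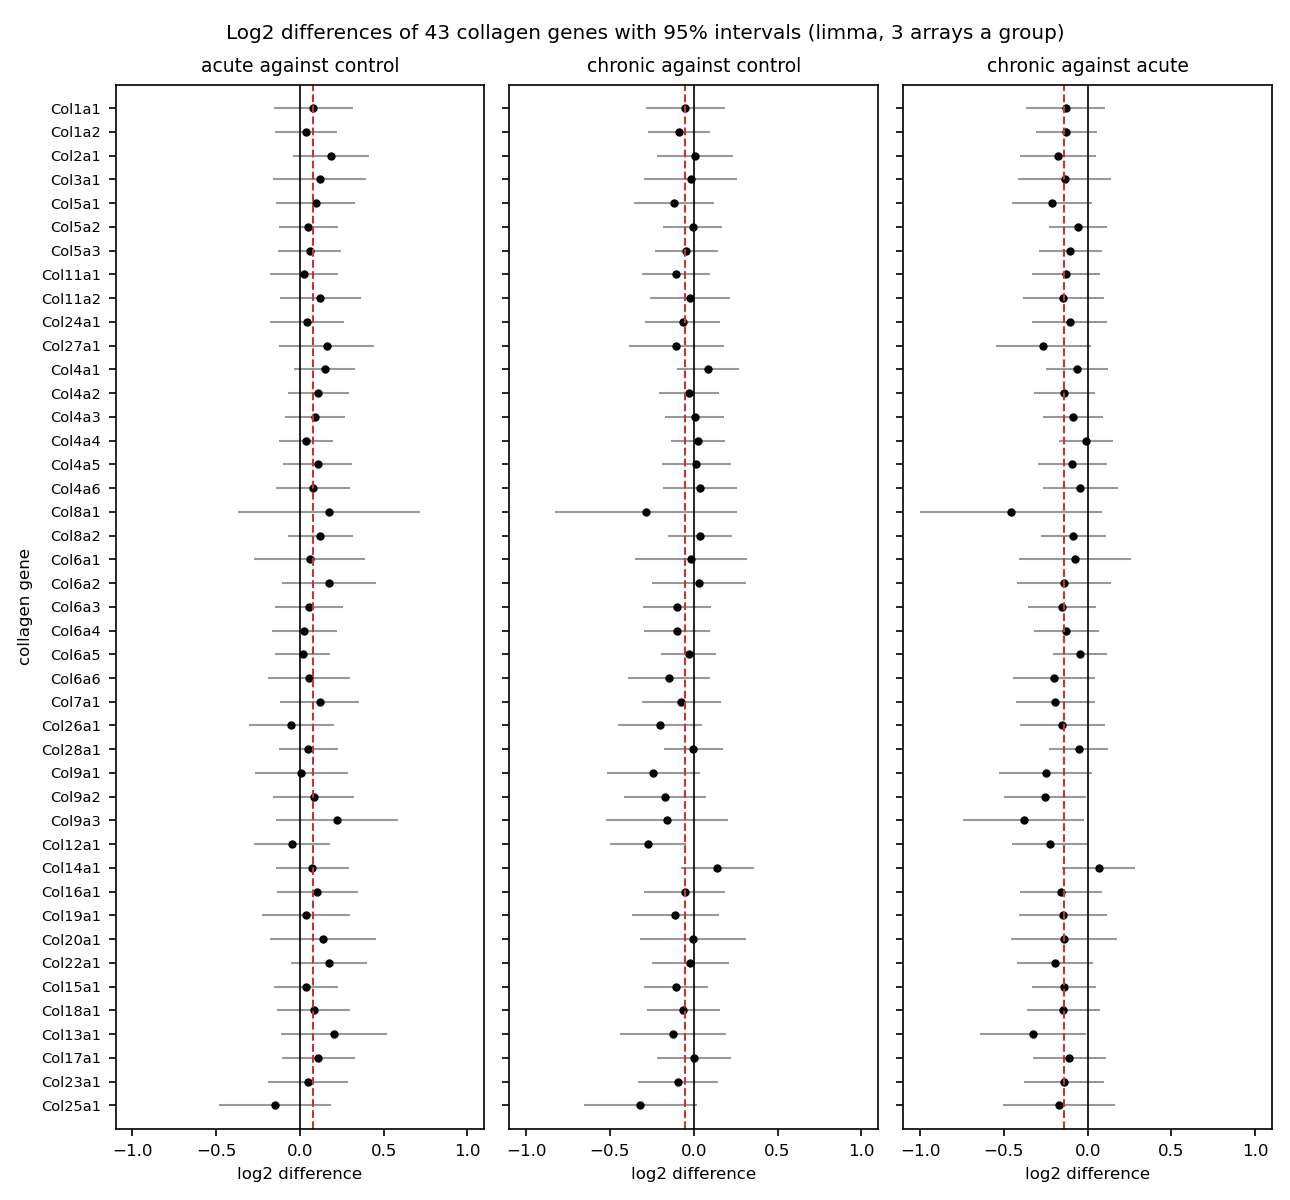
Points are the log2 differences of the 43 tested collagen genes in each of the 3 comparisons, with 95% intervals from limma as grey lines, in the order of the kinds of collagen; the red dashed line is the median of the collagen genes. The median is 0.08 for acute against control, -0.06 for chronic against control and -0.14 for chronic against acute, where every point but Col14a1 lies below 0.

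The 11 fibrillar chains leaned as the collagen genes did as a whole. All 11 were above 0 in acute against control (median 0.08), 10 of 11 were below 0 in chronic against control (-0.05), and all 11 were below 0 in chronic against acute (-0.13). Col1a1 and Col1a2 encode the 2 chains of type I collagen, the main fibre of the meninges. Col1a1 read 7.45, 7.20 and 7.36 in the control group, 7.55, 7.35 and 7.35 in the acute group, and 7.35, 7.35 and 7.16 in the chronic group. The groups overlapped, with acute 1 high and chronic 3 low, and 3 of the 9 values were identical. The chronic against acute difference was -0.13 ± 0.10 (SE, n = 3 and 3), with an adjusted p of 0.878 in limma.

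Col1a2 read 7.43, 7.25 and 7.34 in the control group, 7.36, 7.37 and 7.41 in the acute group, and 7.21, 7.33 and 7.22 in the chronic group. The chronic values all lay under the acute ones, and both overlapped with control. The difference from acute was -0.13 ± 0.08 (SE), about 1.09-fold, with an adjusted p of 0.877. For type I collagen the 95% interval of the chronic against control difference ran from -0.28 to 0.18 in Col1a1 and from -0.27 to 0.09 in Col1a2. Col3a1, the type III chain found with type I, read 6.53, 6.46 and 6.37 in the control group, 6.57, 6.65 and 6.50 in the acute group, and 6.64, 6.50 and 6.16 in the chronic group. Chronic 1 was among its highest arrays and chronic 3 its lowest, which gave a chronic SD of 0.25 against 0.08 in control and 0.07 in acute. Its chronic against control difference was -0.02 ± 0.12 (SE), and without chronic 3 it was 0.12. Col27a1, a fibrillar chain known from cartilage, read 7.43, 7.27 and 7.10 in the control group, 7.47, 7.53 and 7.28 in the acute group, and 7.28, 7.25 and 6.96 in the chronic group. It was highest on acute 2 and lowest on chronic 3, and its chronic against acute difference was -0.27 ± 0.13 (SE), with an adjusted p of 0.877.

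Among the other fibrillar chains, Col5a1 and Col11a2 had both acute 1 and chronic 3 as their extremes, and each of the rest shared 1 of them. Col5a1, a chain that helps to start type I fibrils, ranged from 6.56 on chronic 3 to 6.98 on acute 1, and its chronic against acute difference was -0.21 ± 0.11 (SE). Its partner Col5a2 spanned 0.16 over the 9 arrays. Col5a3 had the same value, 6.64, on all 3 control arrays and on chronic 1. Col11a1 and Col24a1 were highest on control 1 (6.77 and 6.70) and lowest on chronic 3 (6.45 and 6.39), and Col11a2 ranged from 6.85 on chronic 3 to 7.21 on acute 1.

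**Figure D4:**
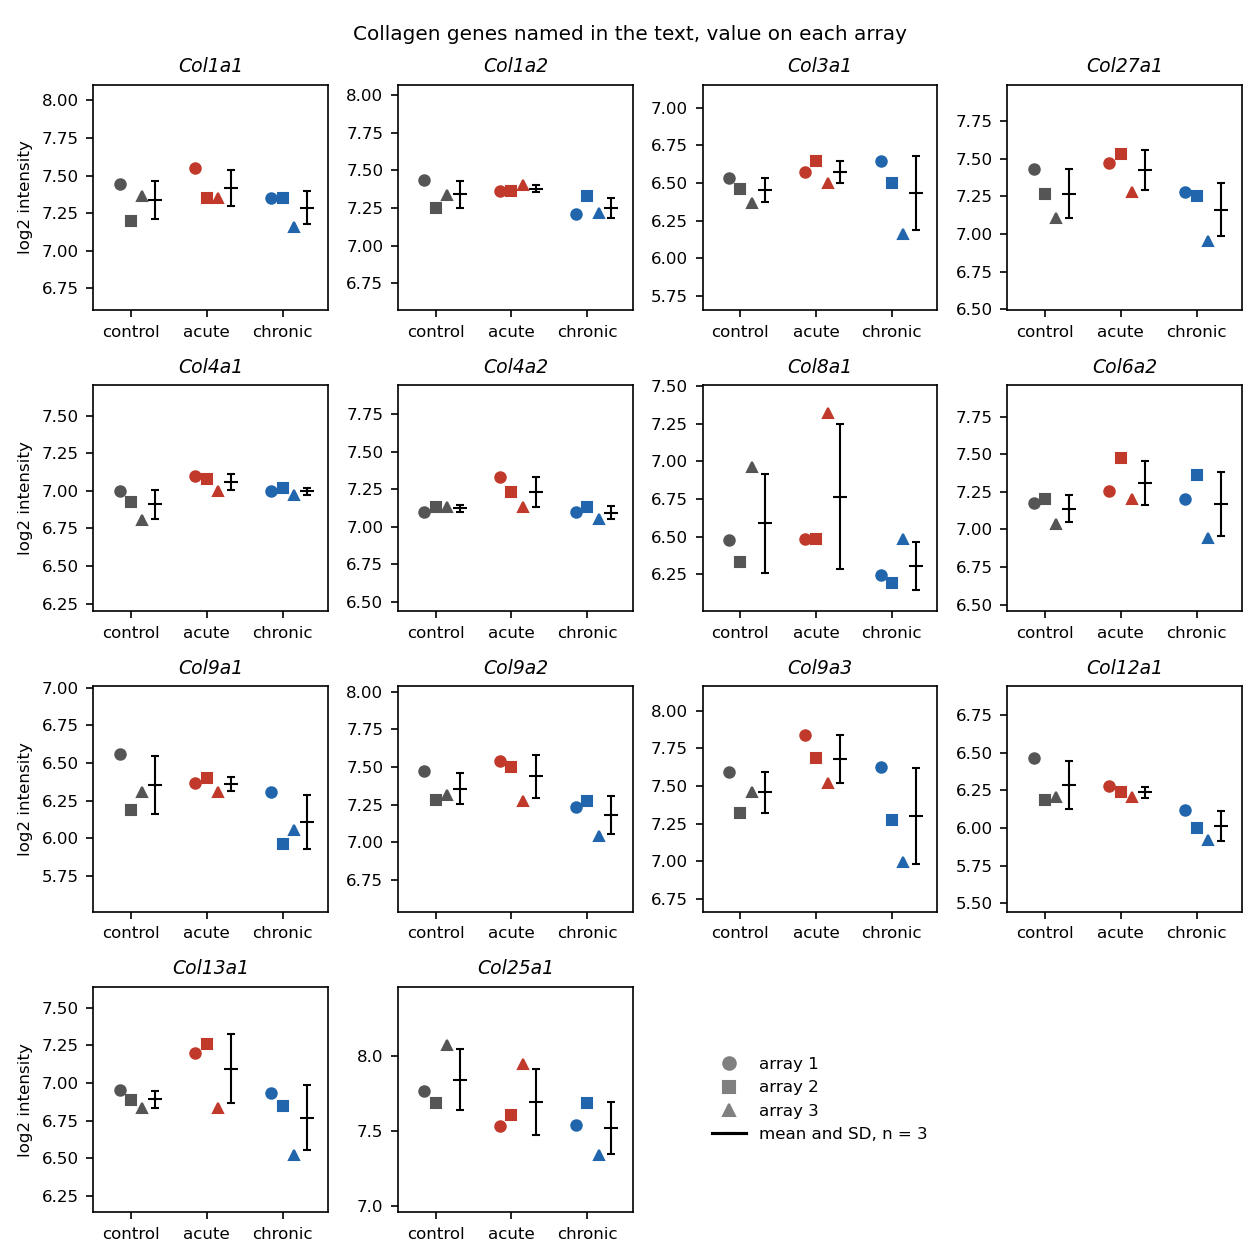
Each panel gives the log2 intensity of 1 collagen gene on the 9 arrays, with the marker shape for the array number and the black bar for the mean and SD of 3 arrays; every panel spans the same height on the log2 scale. The groups overlap in most panels, Col12a1 and Col9a2 have all chronic values under the other groups, and in Col8a1 control 3 and acute 3 stand above the remaining arrays.

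The network-forming chains had a chronic median near that of control. Of the 8 tested, all were above 0 in acute against control (median 0.11), but 6 of 8 were also above 0 in chronic against control (median 0.02), and all 8 were below 0 in chronic against acute (-0.09). None passed a test. Col4a1 and Col4a2 make up the type IV collagen of nearly all basement membranes, including that of brain capillaries. Col4a1 read 6.997, 6.929 and 6.806 in the control group, 7.098, 7.081 and 6.997 in the acute group, and 6.997, 7.018 and 6.971 in the chronic group. Its acute and control values met at 6.997, and the acute difference was 0.15 ± 0.08 (SE), 1.11-fold, with an unadjusted p of 0.101 and an adjusted p of 1 in limma. Col4a2 read 7.10, 7.13 and 7.13 in the control group, 7.33, 7.23 and 7.13 in the acute group, and 7.10, 7.13 and 7.05 in the chronic group. Acute 1 was high and 4 of its 9 values were identical. Its acute difference was 0.11 ± 0.08 (SE), and 95% intervals for chronic against control ran from -0.10 to 0.27 in Col4a1 and from -0.21 to 0.15 in Col4a2. Endothelial markers beside these had a median difference of 0.08 in acute against control, with 9 of 9 above 0, and of 0.09 in chronic against control, with 6 of 9 above 0. In chronic against acute it was -0.003, with 5 of 9 below 0. Single markers differed: Cldn5 read 9.62, 9.34 and 9.16 in the control group, 10.07, 9.68 and 9.60 in the acute group, and 9.46, 8.90 and 8.91 in the chronic group. The part of these markers in the type IV values was not tested. The other type IV chains, Col4a3 to Col4a6, known from kidney and other specialised membranes, spanned from 0.11 in Col4a4, which had 1 value on 5 arrays, to 0.28 in Col4a6.

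Col8a1 departed from the shared order. It encodes a short chain that forms sheets under corneal and vascular endothelium, and it had the widest range of the collagen genes, 1.13. It read 6.47, 6.33 and 6.96 in the control group, 6.49, 6.48 and 7.32 in the acute group, and 6.24, 6.19 and 6.49 in the chronic group. Control 3 and acute 3 were the high arrays, the same that were high in Ttr and in the choroid plexus list (mean deviations of 0.82 and 1.65, against -0.62 to 0.05 elsewhere). The chronic against acute difference was -0.46 ± 0.24 (SE), with an adjusted p of 0.877, and it was -0.18 without those 2 arrays. With the cortical and choroid plexus means as covariates it was -0.06. The acute against control difference was 0.18 ± 0.24 (SE), and it was -0.10 without acute 3. With acute 3 as the only acute array, after leaving out those high in Tbr1, it was 0.68. With the replicate block the unadjusted p was 0.004 in chronic against acute and 0.041 in chronic against control, both short of the adjusted threshold. Its partner chain Col8a2 did not share these 2 high arrays: its highest value, 6.68, was on acute 2.

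Beaded-filament, anchoring and other chains numbered 9, of which 8 were above 0 in acute against control (median 0.05), 8 were below 0 in chronic against control (-0.07) and all were below 0 in chronic against acute (-0.14). Col6a1 and Col6a2 encode chains of type VI collagen, the beaded filament next to basement membranes, and both were unusual in reading high on chronic 2. Col6a1 had its highest value there, 8.12, against 7.71 and 7.61 on the other chronic arrays. Col6a2 read 7.17, 7.20 and 7.04 in the control group, 7.25, 7.47 and 7.20 in the acute group, and 7.20, 7.36 and 6.94 in the chronic group. Its chronic against control difference was 0.03 ± 0.12 (SE), and it was -0.07 without chronic 2. Col6a3, the chain that completes the trimer, was highest on acute 1 (6.82) and lowest on chronic 3 (6.48), as was Col7a1, the chain of skin anchoring fibrils. Col6a4 ranged from 6.24 on chronic 3 to 6.55 on acute 1, and Col6a6 from 7.22 on chronic 3 to 7.63 on acute 1. Col28a1 had 1 value, 6.33, on 5 arrays. The second probe set of Col6a5 disagreed with the first: it was lowest on acute 1 (5.86) and highest on chronic 3 (6.27). Col26a1 had a chronic against control difference of -0.20 and was 1 of the 4 genes with an unadjusted p under 0.05 with the replicate block.

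Fibril-associated chains, which sit on the surface of fibrils and link them to other matrix, included 3 of the 4 collagen genes with an unadjusted p under 0.05 in any comparison. Of 9, 8 were above 0 in acute against control (median 0.08), 8 below 0 in chronic against control (-0.11) and 8 below 0 in chronic against acute (-0.19). Col9a1, Col9a2 and Col9a3 encode the 3 chains of type IX collagen, known for coating the type II fibrils of cartilage. Col9a1 read 6.56, 6.19 and 6.31 in the control group, 6.37, 6.40 and 6.31 in the acute group, and 6.31, 5.96 and 6.06 in the chronic group. Chronic 1 lay among the other groups and chronic 2 and 3 lay under them, and its differences were -0.24 ± 0.12 (SE) from control and -0.25 ± 0.12 (SE) from acute. Without control 1 the first was -0.14, and with the cortical and choroid plexus covariates the second was 0.08.

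Col9a2 read 7.47, 7.28 and 7.31 in the control group, 7.54, 7.50 and 7.27 in the acute group, and 7.24, 7.27 and 7.04 in the chronic group. Its chronic values were under those of both other groups, but by small margins. Chronic 2 and acute 3 both read 7.27 at 2 decimals, and the lowest control value was 7.28. The chronic against acute difference was -0.25 ± 0.11 (SE), 1.19-fold, with an unadjusted p of 0.042 and an adjusted p of 0.877 in limma. It was -0.18 without chronic 3. Against acute 3 as the only acute array it was -0.09. Col9a3 read 7.59, 7.32 and 7.46 in the control group, 7.84, 7.69 and 7.52 in the acute group, and 7.63, 7.28 and 6.99 in the chronic group. It spanned 0.84 from acute 1 to chronic 3, and chronic 1 lay within the acute values. Its chronic against acute difference, the largest with an unadjusted p under 0.05, was -0.38 ± 0.16 (SE), 1.30-fold, with an unadjusted p of 0.041 and an adjusted p of 0.877. Without chronic 3 it was -0.23, and against acute 3 as the only acute array it was -0.22. All 3 type IX chains thus had their lowest means in the chronic group, and none differed from acute past the adjusted test.

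Col12a1, a chain that decorates type I fibrils and is made by meningeal fibroblasts, had the smallest p of the collagen genes in chronic against control. It read 6.47, 6.19 and 6.20 in the control group, 6.28, 6.24 and 6.20 in the acute group, and 6.12, 6.003 and 5.92 in the chronic group. All 3 chronic values were below all 6 others. The difference from control was -0.27 ± 0.10 (SE), 1.21-fold, with a 95% interval from -0.50 to -0.05, an unadjusted p of 0.024 and an adjusted p of 0.884 in limma. The difference from acute was -0.22 ± 0.10 (SE), with an adjusted p of 0.877. Without control 1, the highest array, the difference from control was -0.18 with an unadjusted p of 0.092. With the replicate block the unadjusted p was 0.006. The gene is dim here: its chronic mean, 6.01, was close to the filter at 5.89. The 12 tested fibroblast markers had a median of -0.08 in the same comparison, with 10 of 12 below 0 and 0 at an unadjusted p under 0.05, and their part in the Col12a1 values was not tested. Col14a1, of the same class, was the only collagen gene with a higher mean in chronic than in acute, and its lowest array was control 3 (6.34). Col16a1 and Col22a1 had acute 1 and chronic 3 as their extremes. Col19a1, made by some interneurons, ranged from 6.07 on control 3 to 6.46 on control 1. Col20a1 ranged from 6.38 on control 3 to 6.84 on chronic 1.

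The multiplexins, Col15a1 and Col18a1, are chains of vessel basement membranes that carry sugar side chains, and Col18a1 gives rise to endostatin. Col15a1 had the same value, 6.78, on 5 arrays, with acute 1 above at 6.90 and chronic 2 and 3 below at 6.67 and 6.57. Col18a1 ranged from 6.603 on chronic 3 to 6.96 on acute 1, and its chronic values all lay under the acute ones. Neither passed a test in any comparison.

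Among the 4 transmembrane chains, Col13a1 and Col25a1 had wide ranges and different orders. Col13a1, known from the neuromuscular junction, read 6.95, 6.89 and 6.83 in the control group, 7.20, 7.26 and 6.83 in the acute group, and 6.93, 6.85 and 6.52 in the chronic group. Its acute 1 and acute 2 values stood above all others and chronic 3 below. The chronic against acute difference was -0.33 ± 0.14 (SE), with an unadjusted p of 0.044 and an adjusted p of 0.877, and against acute 3 as the only acute array it was -0.06. Col25a1, a neuronal chain whose shed ectodomain is found in amyloid plaques, read 7.77, 7.69 and 8.08 in the control group, 7.53, 7.61 and 7.94 in the acute group, and 7.54, 7.69 and 7.34 in the chronic group. Control 3 and acute 3 were its high arrays, as for Col8a1, and these were also the 2 highest arrays for markers of thalamus, septum and hypothalamus (mean deviations of 1.62 and 0.84). Its chronic against control difference was -0.32 ± 0.15 (SE), with an unadjusted p of 0.060 and an adjusted p of 0.911, and it was -0.20 without those 2 arrays. Of the 5 collagens listed as made by neurons, the other 4 (Col11a1, Col19a1, Col23a1 and Col24a1) were highest on control 1 or acute 1. All 5 had a lower chronic mean than control (median -0.11).

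Grouped by the cells known to make them, the collagens gave like counts. Of 10 collagens of meningeal and perivascular fibroblasts, 9 were above 0 in acute against control (median 0.06), 9 were below 0 in chronic against control (-0.07) and 10 were below 0 in chronic against acute (-0.14). Of the 3 of vessel basement membrane, 3 were above 0 in the first (0.11), 2 below in the second (-0.03) and 3 below in the third (-0.14). The fibroblast markers, which hold no collagen, had medians of -0.01, -0.08 and -0.10 in the same comparisons, with 4 of 12 above 0 in the first.

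The genes that build, bind and degrade collagen showed no change past the adjusted test: 0 of 21 tested modifying and folding enzymes, 0 of 12 processing and cross-linking genes, 0 of 10 receptors, 0 of 14 basement membrane partners, 0 of 12 proteoglycans and glycoproteins, and 0 of 10 proteases and inhibitors. In acute against control, 10 of 12 processing genes were above 0 with a median of 0.10, against 0.08 for the collagen genes, while 9 of 12 proteoglycans and glycoproteins were below 0 (-0.08), as were 7 of 10 proteases and inhibitors (-0.04). In the same comparison 12 of 21 enzymes, 6 of 10 receptors and 8 of 14 basement membrane partners were above 0, with medians of 0.00, 0.08 and 0.01. In chronic against control, 8 of 21 enzymes, 6 of 12 processing genes, 5 of 10 receptors and 7 of 14 basement membrane partners were below 0, with medians of 0.03, -0.01, 0.01 and -0.00, as were 7 of 12 proteoglycans and glycoproteins (-0.04) and 3 of 10 proteases and inhibitors (0.02). In chronic against acute, 11 of 21 enzymes, 7 of 12 processing genes, 6 of 10 receptors and 8 of 14 basement membrane partners were below 0, with medians of -0.00, -0.07, -0.04 and -0.02, as were 8 of 12 proteoglycans and glycoproteins (-0.06) and 5 of 10 proteases and inhibitors (0.01). The 2 enzyme genes with the smallest p were P4ha2, a subunit of prolyl 4-hydroxylase (-0.21 ± 0.10, SE, in chronic against control), and Sec23a, a coat protein that carries procollagen out of the endoplasmic reticulum (-0.22 ± 0.12, SE).

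Adamts3, a protease that can remove the amino-terminal propeptide of procollagen, had the smallest p of these lists. It read 9.76, 10.46 and 9.89 in the control group, 10.25, 10.25 and 10.23 in the acute group, and 10.54, 10.74 and 10.99 in the chronic group. The chronic values were above all others, and the difference from control was 0.72 ± 0.18 (SE), with an unadjusted p of 0.003 and an adjusted p of 0.876 in limma. Its sign was thus opposite to that of most collagen genes. Its 2 lowest arrays, control 1 and control 3, were also the lowest for the striatal projection neuron list (mean deviations of -0.42 and -0.55), and chronic 3 was the highest for both (0.39 for the list). The part of striatal content in its values was not tested. Loxl4, a cross-linking oxidase, had a chronic against acute difference of -0.30 ± 0.12 (SE), with an adjusted p of 0.877.

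Thbs2, a thrombospondin of the matrix, read 7.02, 6.55 and 7.50 in the control group, 6.74, 6.94 and 6.74 in the acute group, and 6.37, 6.30 and 6.36 in the chronic group. The chronic values were close together and below all others, while the control values ran from 6.55 to 7.50. The difference from control was -0.68 ± 0.20 (SE), with an unadjusted p of 0.008 and an adjusted p of 0.876. Fn1, fibronectin, differed by 0.23 ± 0.11 (SE) between chronic and acute, in the other direction. Among receptors, Adgrg6, which binds type IV collagen, had a chronic against control difference of -0.39 ± 0.15 (SE), with an unadjusted p of 0.028 and an adjusted p of 0.898, and Itga11, a collagen-binding integrin subunit, had one of 0.17 ± 0.13 (SE). Among basement membrane partners, the laminin chains Lama2 and Lamb1 had differences of 0.28 ± 0.12 (SE) from acute and 0.24 ± 0.12 (SE) from control. Among proteases, Mmp9, a gelatinase, had a chronic against control difference of -0.23 ± 0.12 (SE), and Mmp24 had a chronic against acute difference of 0.14 ± 0.10 (SE). None of these passed the adjusted test.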

How the data were processed

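Total RNA of mouse striatum was measured on 9 Affymetrix arrays; per the labels' protocols, biotinylated cDNA was made from 200 ng of RNA. The values deposited by the authors are log2 intensities per probe set, a scale read from the values; background correction, normalization and summary are not given in the sources used here. Of 28815 probe sets, the platform annotation gave 1 symbol for 21780, several for 1605 and none for 5430. All 44 collagen genes were found in RefSeq (GRCm38.p6) by gene identifier. Col6a5 and Col6a6 had 2 probe sets each.

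The 16335 probe sets with 1 symbol and a mean at or above the 25th percentile (5.89) were fitted with limma 3.58.1 in R 4.3.3: a mean per group over all 9 arrays, eBayes, two-sided tests, Benjamini-Hochberg adjustment over all of them, threshold 0.05. Errors are SE of that fit or SD of 3 arrays; the number of arrays limits the precision. The code was tested on simulated data. Members, lists and alternatives were chosen with earlier results of these data known. Full values are given for Col1a1, Col1a2, Col3a1, Col4a1, Col4a2, Col25a1, and for collagen genes with an unadjusted p under 0.05 or among the 8 widest ranges; of each pathway list, the 2 genes with the smallest p; other collagens are named for single values.

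Same-numbered arrays of different groups deviated together: over probe sets, r was 0.145 to 0.613 in the 9 pairs with a shared number and -0.551 to 0.184 in the 18 others, so the replicate number was fitted as a block beside the main design. This pairing comes from the values and not from the labels. At most 6.34% of values were identical between 2 arrays. Other alternatives were the filter, normalization, array weights, an intensity trend, only the 2 groups compared, tissue marker covariates and leaving out arrays. No protein sequences were used here.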

Additional observations from a re-analysis of the deposited data

How the results depend on the processing

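No collagen gene passed the adjusted test under any of the alternatives run, and the median difference of the collagen genes kept its sign in all 3 comparisons. Leaving out 1 array gave medians from 0.05 to 0.13 for acute against control, -0.10 to -0.00 for chronic against control and -0.18 to -0.08 for chronic against acute. With the replicate block the smallest adjusted p of a collagen gene was 0.249 and the pairing changed no call. With the stricter filter, which kept 9 collagen genes, the median for chronic against control was -0.15.

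Over all probe sets, 1 passed in acute against control when only those 2 groups were fitted, and 0 to 1 when 1 array was left out. In chronic against control 0 to 2 passed with 1 array left out. In chronic against acute, where 2 passed, 1 passed without a filter, after cyclic loess (chosen after seeing the data), with only the 2 groups and with the fibroblast covariate; 0 passed with the cortical and choroid plexus covariates, without the 3 arrays high in Tbr1 (1 acute array left) and without the 2 high in Ttr; and 1 to 5 passed with 1 array left out.

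Signs turned in 35 of 942 values of named genes, all of differences of at most 0.25 in size as reported; the cause was not tested. In acute against control, Col9a1 was -0.017 after quantile normalization, -0.026 after cyclic loess and -0.12 with the cortical and choroid plexus covariates, which also gave -0.023 for Col1a2 and -0.0085 for Col8a1. Without the 3 arrays high in Tbr1, which leaves 1 acute array, the values were 0.0079 for Col12a1, -0.030 for Col13a1, 0.062 for Col25a1 and -0.023 for Col9a2, and Col4a2 was exactly 0. Leaving out 1 array gave -0.10 to 0.044 for Col12a1, -0.0077 to 0.084 for Col1a2, -0.076 to 0.11 for Col9a1 and -0.10 to 0.36 for Col8a1. In chronic against control, Col3a1 was 0.012 after quantile normalization, 0.0125 with array weights, 0.031 with the cortical covariates and 0.020 without the arrays high in Tbr1; Col1a1 was 0.0016 with weights, 0.0555 with those covariates and 0.0048 without those arrays; Col1a2 was 0.0051 with the covariates; Col6a2 was -0.0275 with the fibroblast covariate and -0.020 without the arrays high in Ttr. Leaving out 1 array gave -0.12 to 0.013 for Col1a1, -0.12 to 0.12 for Col3a1 and -0.066 to 0.14 for Col6a2. In chronic against acute, the cortical covariates gave 0.0365 for Col1a1, 0.028 for Col1a2, 0.071 for Col25a1 and 0.077 for Col9a1. Low signal limits what can be seen: 26 of 43 collagen genes were among the dimmest 4084 of 16335 probe sets.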
